A study of Mus musculus with 96 samples.

Results

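CC006 and CC039 are 2 strains of the Collaborative Cross, a panel of recombinant inbred mice bred from crosses of several founder strains. They were chosen from measured values: in an earlier look at these cultures their interferon-stimulated genes were high against the mean of the other strains. They account for 4 of the 96 samples, 2 libraries each, and are 2 of the 39 strains with 2 or more libraries. The comparison group was the other 37 such strains, with 88 libraries. All groups were handled alike. Calvarial cells, the cells of the skull cap, were released from pups of 3 to 5 days, grown for 48 h and then differentiated for 10 days with ascorbic acid and B-glycerol phosphate, under which osteoblasts lay down mineral. No sample received interferon or an infectious agent according to the labels, and 200 ng of total RNA per library went into a stranded, ribosomal-RNA-depleted preparation. The labels give strain and no sex, litter or batch, they do not explain the number in each sample title, and they do not state whether samples of 1 strain came from separate animals. A p-value between strains therefore measures only the spread of these samples, part of which may be technical.

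Interferons are secreted proteins that cells release when sensors such as RIG-I, MDA5 or cGAS meet foreign or misplaced nucleic acid. Type I interferons bind the receptor IFNAR, the kinases JAK1 and TYK2 are activated, and a complex that holds IRF9 binds a DNA element built from GAAA repeats, the interferon-stimulated response element. The genes switched on there encode antiviral effectors, antigen-presentation proteins, more of the sensors and factors themselves, and inhibitors such as USP18. In bone, interferon signalling is known as a brake on osteoclast formation.

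The promoters of 6 genes are printed first, because 5 of them belong to genes that were high in 1 or both strains and the last (Slfn8) to one that separated the strains. Mx1 and Mx2, which also separated the strains, have no promoter entry here. Each is the 250 bases before the start of the gene, from RefSeq on GRCm38.p6, 5′ to 3′ on the coding strand. Ifit1 lies at chr19:34640639-34640888 on the plus strand, Ifit3 at chr19:34583279-34583528 on the plus strand and Isg15 at chr4:156200819-156201068 on the minus strand. Oas1a lies at chr5:120907526-120907775, Bst2 at chr8:71537473-71537722 and Slfn8 at chr11:83020811-83021060, all on the minus strand. Capitals mark matches, on either strand, to GAAA followed by 2 bases of any kind (NN) and a second GAAA, with overlapping matches run together.
Ifit1: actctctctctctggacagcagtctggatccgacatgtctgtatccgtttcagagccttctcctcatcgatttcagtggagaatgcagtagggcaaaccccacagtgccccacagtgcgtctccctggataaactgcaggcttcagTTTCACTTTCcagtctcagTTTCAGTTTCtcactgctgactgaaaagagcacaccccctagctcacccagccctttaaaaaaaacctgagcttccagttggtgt
Ifit3: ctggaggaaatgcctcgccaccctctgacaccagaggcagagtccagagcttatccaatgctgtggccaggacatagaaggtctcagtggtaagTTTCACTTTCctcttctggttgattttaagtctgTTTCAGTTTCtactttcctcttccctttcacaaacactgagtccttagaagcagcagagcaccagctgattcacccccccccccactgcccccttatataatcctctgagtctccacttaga
Isg15: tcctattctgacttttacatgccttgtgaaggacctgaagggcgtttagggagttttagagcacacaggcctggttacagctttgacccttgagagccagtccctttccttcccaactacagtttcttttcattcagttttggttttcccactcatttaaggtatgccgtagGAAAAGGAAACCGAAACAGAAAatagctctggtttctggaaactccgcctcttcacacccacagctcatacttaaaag
Oas1a: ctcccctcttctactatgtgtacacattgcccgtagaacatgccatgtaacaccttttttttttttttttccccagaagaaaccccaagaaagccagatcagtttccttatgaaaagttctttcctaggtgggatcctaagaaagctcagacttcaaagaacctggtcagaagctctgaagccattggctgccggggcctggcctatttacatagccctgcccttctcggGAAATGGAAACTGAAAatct
Bst2: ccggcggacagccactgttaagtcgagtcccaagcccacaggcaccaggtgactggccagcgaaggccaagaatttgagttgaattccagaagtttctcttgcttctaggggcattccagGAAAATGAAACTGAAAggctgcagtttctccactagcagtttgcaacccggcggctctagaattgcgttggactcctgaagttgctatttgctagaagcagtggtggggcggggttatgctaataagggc
Slfn8: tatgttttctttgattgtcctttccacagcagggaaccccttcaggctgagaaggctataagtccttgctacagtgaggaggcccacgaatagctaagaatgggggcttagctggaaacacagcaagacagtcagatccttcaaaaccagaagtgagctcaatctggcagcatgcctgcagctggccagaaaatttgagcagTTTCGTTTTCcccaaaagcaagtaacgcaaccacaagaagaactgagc

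Ifit1, Ifit3, Oas1a and Bst2 held 2 matches each, Isg15 held 3 that overlap, and Slfn8 held 1. Slfn8 has 2 promoter entries, and the entry printed was picked by its number of matches. Shares by gene below also use the entry with the most matches. The motif occurred in 978 of 32851 promoters of the table (2.98%) and in 356 of the 10955 tested genes with an entry (3.25%). Among genes of the lists with an entry it was found in 14 of 30 antiviral effectors (46.7%), 10 of 11 interferon-inducible GTPases (90.9%), 7 of 10 Ifi200 genes (70%) and 3 of 18 genes of MHC class I and antigen processing (16.7%). The Schlafen genes held it in 3 of 7 (42.9%) and the chemokines in 1 of 4 (25%). It was rarer in feedback genes and transcription factors (3 of 21, 14.3%), sensors and adaptors (1 of 15, 6.67%) and MHC class II (0 of 8). The interferon genes themselves, which were scarcely listed in these libraries, held it in 11 of 20 (55%). A match describes the reference sequence only, and the strains' own sequences were not used here.

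Values are scaled TPM (TPM is a length-corrected share of a library, here divided by 1 scaling factor per library), and the level of the other strains is given as the lowest, median and highest of 37 strain means. Ranks of strains for a gene use the mean of log2(scaled TPM + 0.5) instead, so their order can differ from that of these means. An effector index, the mean of log2(scaled TPM + 0.5) over 38 antiviral effector genes, was 3.03 and 3.72 in the CC006 libraries and 3.50 and 3.30 in the CC039 libraries. The other 88 libraries ran from 1.26 to 3.95 with a median of 2.10. So the 4 libraries sat near the top of the range but within it: 5 other libraries were at least as high as the lower CC006 library and 2 as the lower CC039 library. By strain mean CC030 ranked 1 with 3.58, CC039 ranked 2 with 3.40, CC006 ranked 3 with 3.38 and CC055 ranked 4 with 3.03. The CC030 libraries (3.21 and 3.95) overlapped those of both strains, and the spread between the libraries of CC006 was wider than the gap between the first 3 strains. The label interferon-high therefore describes 2 of the 3 highest strains, not a class of their own.

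**Figure D1:**
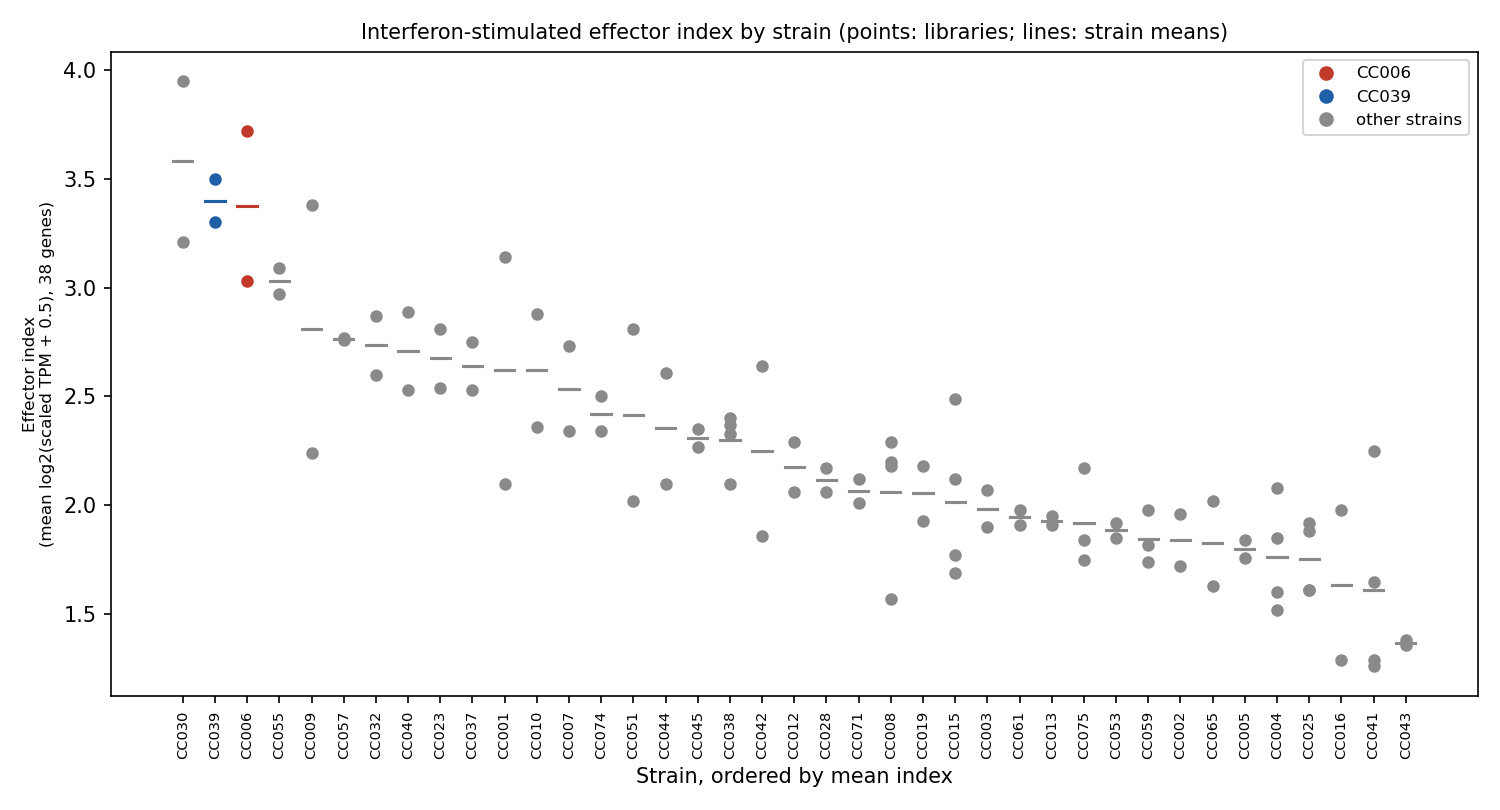
Effector index, the mean log2(scaled TPM + 0.5) of 38 interferon-stimulated effectors, for the 39 strains with 2 or more libraries in order of strain mean. Points are libraries and bars strain means. CC039 (3.40) and CC006 (3.38) stand at ranks 2 and 3, below CC030 (3.58).

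Each strain was compared with the mean of the other 37 strains with limma, which is the comparison used to choose them, so its counts and differences are a description and carry no p here. Both comparisons also share the 37 strains, and values for CC006 and CC039 are given side by side. The comparison of CC006 with CC039 was not used to choose them. Both were chosen for high interferon-stimulated genes, however, which can bring their levels of such genes together. Counts of those genes that passed between the strains are therefore a description, and their p does not account for the choice. Over all 15732 tested genes, 1542 passed a false discovery rate of 0.05 in CC006 (9.8%) and 1642 in CC039 (10.4%). Of these, 967 were higher in CC006 (6.15%) and 575 lower (3.65%), while 818 were higher in CC039 (5.2%) and 824 lower (5.24%). With TPM as deposited, without scaling, the higher share of calls moved from 62.7% to 80.9% in CC006 and from 49.8% to 21.7% in CC039. The median difference of all genes was then 0.10 and -0.16 on the log2 scale in place of 0.01 and -0.03. Genes past the threshold and higher in both strains were 15.7% of those higher in CC006 and 18.6% of those higher in CC039. Of them, 37 stood on the interferon and MHC lists. The strains were chosen for genes of this kind, so that number follows in part from the choice and shows no enrichment. Among the 20 largest shared rises, 4 stood on those lists. A further 96 genes were lower in both (16.7% and 11.7% of each list), and 156 passed in opposite directions. Without 1 library of a strain fewer genes passed in either direction: 723 and 384 in CC006 and 626 and 649 in CC039, without the first and the second library.

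Interferon genes themselves were scarcely listed. None of 21 passed the filter of 0.5 TPM in 2 libraries, and 18, among them Ifnb1 and Ifng, were at 0 in all 4 libraries. Their summed level was 0.319 and 0.195 scaled TPM in CC006, 0.105 in 1 CC039 library and near 0 in the other, within the 0 to 0.646 of the other libraries. Sequencing depth is not recorded in TPM, so how low a level these files could show is unknown. Receptors and kinases were not extreme in the panel. By the mean log2 level of the 8 tested genes, CC006 had rank 10 and CC039 rank 28 of 39 strains. Ifnar1, a chain of the type I receptor, was 18.1 and 17.9 in CC006 and 15.3 and 15.5 in CC039, against 13.6, 17.2 and 23.6 in the other strains. Of 8 tested genes of this group none passed the threshold in either strain or between them (limma; 1 had an unadjusted p under 0.05 in each of the 3 comparisons), and the median differences were 0.05 in CC006 and -0.06 in CC039.

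Sensors of nucleic acid were mixed. Ifih1, which encodes the RNA sensor MDA5, was 6.24 and 10.6 in CC006 and 7.74 and 5.76 in CC039, against 1.03, 2.92 and 8.73. Dhx58, which encodes its relative LGP2, was 4.16 and 9.22 in CC006 and 7.67 and 5.22 in CC039, against 0.871, 1.99 and 6.82. Zbp1, a sensor of left-handed nucleic acid, was 4.87 and 7.13 in CC006 and 5.05 and 5.49 in CC039, against 0.194, 0.96 and 7.49. All 4 libraries lay above the other strains' median for these 3 genes, and the libraries of CC006 and CC039 overlapped. Cgas and Mavs, the DNA sensor and the adaptor of RNA sensing, did not pass in either strain: Cgas was 0.499 and 0.734 in CC006 and 0.679 and 0.713 in CC039 against a median of 0.552. Of 20 sensors and adaptors tested, 7 were past the threshold and higher in CC006 and none lower, and 4 were higher and 2 lower in CC039. The 2 lower genes encode the kinases that activate IRF3, and neither passed in CC039 without its first library. Tbk1 was 8.23 and 9.17 in CC006 and 5.29 and 6.12 in CC039, where no other library lay below the lower CC039 value. Ikbke was 4.37 and 4.69 in CC006 and 2.43 and 2.48 in CC039.

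The transcription factors and feedback genes that interferon induces were high in both strains. Irf7, the factor that amplifies interferon production, was 10.9 and 25.6 in CC006 and 18.2 and 13.6 in CC039, against 1.18, 4.53 and 19.4. Usp18, which shuts off the receptor, was 7.49 and 18.0 in CC006 and 14.2 and 10.0 in CC039, against 0.526, 2.88 and 16.1. Irf9 was 19.7 and 28.7 in CC006 and 28.3 and 21.3 in CC039, against 5.4, 11.7 and 24.4. The 2 strains overlapped at each of these genes, and the second CC006 library was above the first. Their log2 differences from the other strains were 1.74 ± 0.40 (SE) and 1.65 ± 0.40 for Irf7 and 1.72 ± 0.43 and 1.76 ± 0.43 for Usp18, in CC006 and CC039 in that order. Sp100, which encodes a nuclear body protein, was 4.13 and 7.93 in CC006 and 2.73 and 3.41 in CC039, against 0.277, 1.04 and 4.4. Phf11d, a PHD finger gene, was 7.72 and 15 in CC006 and 13.2 and 9.4 in CC039, against 0.484, 3.09 and 11.8. Of 27 genes, 18 were past the threshold and higher in CC006 (median difference 0.81) and 9 in CC039 (0.52), 7 of them in both, and none was lower. No gene of this list passed between CC006 and CC039 (limma), where 6 had an unadjusted p under 0.05. Socs1 and Socs3, inhibitors of cytokine receptor kinases, did not pass in either strain.

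Antiviral effectors gave the list with the largest number of calls. Ifit1, whose protein binds foreign capped RNA, was 17.6 and 27.6 in CC006 and 28.0 and 15 in CC039, against 0.821, 5.61 and 25.5. Ifit3, its partner, was 22.3 and 40.8 in CC006 and 33.5 and 22.1 in CC039, against 1.12, 6.67 and 37.9. Ifit1 differed from the other strains by 1.85 ± 0.50 (SE) in CC006 and 1.75 ± 0.50 in CC039 on the log2 scale, about 3.59-fold and 3.36-fold. Ifit3 shares 61.8% of its 31-base words with other genes, so its split from Ifit3b is uncertain, and the sum of both was 27.6 and 50.1 in CC006 and 41.3 and 26.8 in CC039 against a median of 8.66. Isg15, a ubiquitin-like modifier, was 19.9 and 31.7 in CC006 and 48.8 and 33.9 in CC039, against 2.16, 9.4 and 47.8. Both CC039 values were above both CC006 values, but the difference of -0.68 ± 0.61 (SE) did not pass (limma, adjusted p = 0.562). Oas1a and Oas1g, genes of the oligoadenylate synthetase family, also share sequence, and their sum was 6.78 and 18.6 in CC006 and 13.2 and 14.8 in CC039 against a median of 2.09. Rtp4 was 8.89 and 16.9 in CC006 and 11.6 and 9.15 in CC039, against 0.666, 2.71 and 15.4.

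Some effectors leaned to 1 strain without passing between them. Bst2, which encodes tetherin, a protein that holds budding virus on the cell, was 101 and 147 in CC006 and 75 and 65.9 in CC039, against 17.1, 37.6 and 90.3. Ifi27l2a was 61.2 and 112 in CC006 and 19.8 and 29.6 in CC039, against 0, 16.4 and 214. Both CC006 libraries were above both CC039 libraries for these genes, with differences of 0.79 ± 0.42 (SE, adjusted p = 0.249) for Bst2 and 1.76 ± 0.87 (adjusted p = 0.209) for Ifi27l2a. Ifi44l was at 0 in all 4 libraries, and the median of the other strains was also 0. In all, 28 of 38 effectors were past the threshold and higher in CC006 and 24 in CC039, 19 in both and none lower, with median differences of 1.08 and 0.99. The CC006 count rested on its second library: 1 effector passed without it, and 22 without the first. The CC039 count was 8 without its first library and 13 without its second, and the shared count ran from 1 to 16 when any 1 of the 4 was left out.

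**Figure D2:**
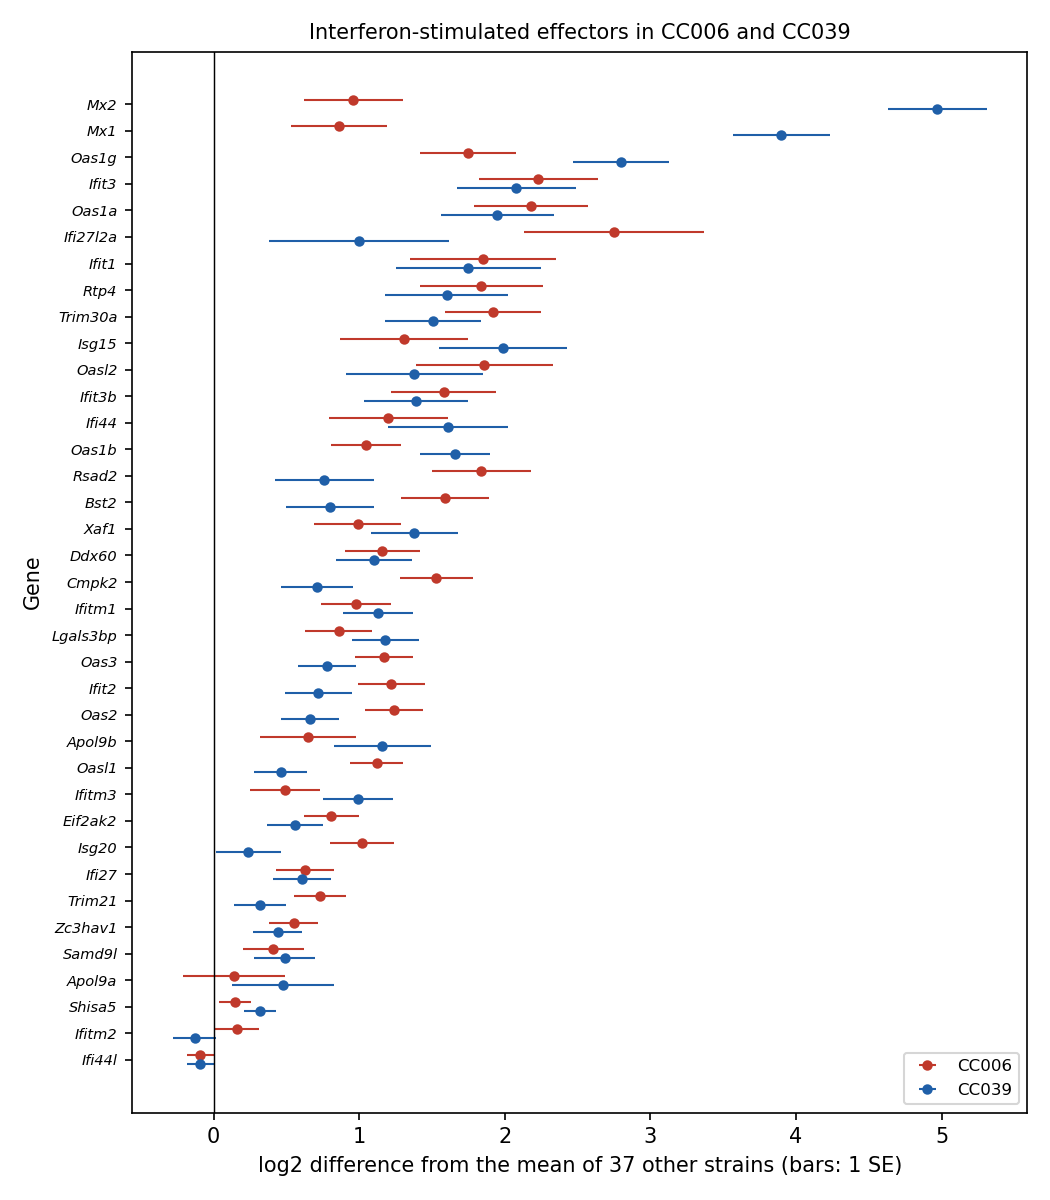
log2 difference of 37 of the 38 effectors from the mean of the 37 other strains in CC006 and CC039. Points are estimates from limma and bars 1 SE. Most genes have overlapping bars in the 2 strains, and Mx1 and Mx2 stand apart in CC039 (3.90 and 4.97).

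The Mx genes were where the effectors of the 2 strains parted. Both encode dynamin-like GTPases that block virus replication, and the annotation lists Mx2 as polymorphic, a gene whose reading frame is intact in some mouse strains only. Mx1 was 1.19 and 2.67 in CC006 and 20.6 and 16.7 in CC039, against 0.00948, 0.588 and 19.3. Mx2 was 2.77 and 6.13 in CC006 and 89.8 and 61.8 in CC039, against 0, 1.01 and 47.4. Neither gene overlapped between the strains. By the mean of log2(scaled TPM + 0.5), CC039 had rank 1 and CC006 rank 9 of 39 strains for both. By mean scaled TPM, however, CC030 was above CC039 for Mx1, with 19.3 against 18.6. Mx1 was 8.24-fold higher in CC039 (log2 difference of CC006 minus CC039 -3.04 ± 0.46, SE pooled over 39 strains, n = 2 and 2 libraries, limma adjusted p = 1.24e-06). Mx2 was 16.1-fold higher (-4.01 ± 0.47, adjusted p = 2.4e-09). They were the only effectors of the 38 that passed between the strains, against 1624 of 15732 genes in either direction (10.3%), 921 of them higher in CC006 (5.85%) and 703 lower (4.47%). As both strains were chosen for high effectors, this small count can follow in part from the choice. Both kept their call in each of the alternatives tried. Without the first CC006 library 7 effectors passed, and with TPM as deposited 5 did.

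High Mx did not track the index in order across strains. CC030, at rank 1 by index, had mean levels of 19.3 for Mx1 and 37.8 for Mx2. CC055, at rank 4, had 0.935 and 2.48, and CC009, at rank 5, had 0.941 and 3.87. CC057 and CC001, at ranks 6 and 11, had 6.86 and 47.4, and 7.01 and 43.2. CC032, at rank 7, had 0.637 and 1.01. Thus Mx2 ran from 1.01 to 75.8 over these strains, and CC006, with a mean of 4.45, lay nearer to CC055, CC009 and CC032 than to the others.

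Interferon-inducible GTPases of the Gbp and Irg families, which attack the vacuoles of intracellular parasites, were called more often in CC006, a difference in counts that was not tested. Of 17 tested (Gbp6 is not in the table used here), 11 passed and were higher in CC006, and 5 were higher and 1 lower in CC039. Ifi47 was 4.24 and 6.2 in CC006 and 4.42 and 3.3 in CC039, against 0.451, 1.47 and 5.33. Igtp was 6.51 and 11.0 in CC006 and 7.51 and 4.95 in CC039, against 1.47, 3.44 and 8.76. Libraries of the strains overlapped at both genes. Gbp9 was 1.66 and 2.59 in CC006 and 3.27 and 2.35 in CC039, and Gbp3 was 4.67 and 7.35 in CC006 and 5.09 and 3.1 in CC039. Tgtp2 was the gene that passed between the strains, with 0.832 and 2.02 in CC006 and a listing at or near 0 in both CC039 libraries, a log2 difference of 1.87 ± 0.29 (SE, adjusted p = 1.62e-06). Its near copy Tgtp1 was 0.418 and 0.842 in CC006 and 0.458 and 0.209 in CC039. As 90.5% of the 31-base words of Tgtp2 and 84.4% of those of Tgtp1 occur in other genes, their split is uncertain, and the sum of the pair was 1.25 and 2.87 in CC006 and 0.458 and 0.209 in CC039.

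The Ifi200 genes, a cluster of nuclear DNA-binding proteins, and the Schlafen genes, regulators of growth and of viral translation, included genes that passed between the strains. Ifi202b was 44.2 and 56.8 in CC006 and 36.6 and 35.6 in CC039, against 0.00752, 25.7 and 93.7, so both were well inside the panel. Ifi203 was 5.21 and 8.25 in CC006 and 2.24 and 2.04 in CC039, and passed (1.42 ± 0.45, SE, adjusted p = 0.0325). Mndal was 1.88 and 4.28 in CC006 and at or near 0 in both CC039 libraries (2.75 ± 0.29, adjusted p = 1.04e-10). Its median in the other strains was 0.0424, with a highest strain mean of 2.95 in CC008. Mndal shares 42.5% of its 31-base words with other genes, so its split from its neighbours is uncertain, but the sum of Mndal, Ifi203 and Ifi204 was also higher in CC006, with 22 and 34.4 against 17.7 and 17.5 in CC039. Of 8 Ifi200 genes tested, 2 were higher in CC006 than in CC039 and none lower, but Ifi203 did not pass with a pseudocount of 0.1, with the macrophage index as a term, or without the second CC006 library or either CC039 library.

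Slfn8 was 4.31 and 9.02 in CC006 and 0.875 and 0.489 in CC039, against 0.177, 1.02 and 3.83. Slfn9 was 2.8 and 3.69 in CC006 and 0.732 and 0.584 in CC039, against 0.399, 1.18 and 2.76. CC006 had rank 1 of the 39 strains for both, while CC039 was at or below the median. The differences were 2.54 ± 0.43 (SE, adjusted p = 1.26e-05) for Slfn8 and 1.69 ± 0.28 (adjusted p = 1.22e-05) for Slfn9. Slfn8 shares 26.8% of its words with other genes, and the sum of Slfn8, Slfn9 and Slfn10-ps kept the separation, with 7.86 and 13.9 in CC006 and 1.78 and 1.33 in CC039. Slfn4 went the other way with an adjusted p of 0.0405, at 0.185 and 1.42 in CC006 and 1.26 and 1.37 in CC039, where the strains overlap, and this difference changed sign without the first CC006 library. Of 7 Schlafen genes tested, 3 were higher in CC006 and 1 in CC039. Slfn5 was 15.1 and 15.2 in CC006 and 4.6 and 4.27 in CC039 and did not pass (1.67, adjusted p = 0.183).

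MHC class I genes, which present peptides from inside the cell, included 6 that passed between the strains, of which H2-T10 kept its call in each alternative. H2-T10, a nonclassical class I gene, was 9.62 and 12.9 in CC006 and 1.13 and 0.577 in CC039, against 0.171, 0.503 and 14.3 (3.14 ± 0.28, SE, adjusted p = 1.19e-13). Its near copy H2-T22 was 2.55 and 3.84 in CC006 and 2.43 and 2.37 in CC039, against 0.747, 13.5 and 28.1, below the median of the other strains in both. About 50.6% of the 31-base words of H2-T10 and 51% of those of H2-T22 occur in other genes. The sum of the pair was 12.2 and 16.8 in CC006, near the median of 15.3, and 3.57 and 2.95 in CC039. H2-D1, a classical class I heavy chain, was 84.1 and 178 in CC006 and 107 and 108 in CC039, against strain means with a lowest value of 10.3 and a median of 67.9 and a highest other library of 253, while H2-K1 did not pass in either strain. B2m, the light chain of class I, was 573 and 804 in CC006 and 593 and 578 in CC039, against 275, 462 and 653. Psmb8, a subunit of the immunoproteasome, was 18.3 and 28.1 in CC006 and 18.2 and 13.9 in CC039, against 2.48, 9.55 and 21.7. Of 23 genes, 13 were past the threshold and higher in CC006 and 1 lower, and 6 were higher and 2 lower in CC039. Between the strains 5 were higher in CC006 and 1 (H2-Q10) in CC039. Without the second CC006 library H2-Q4, H2-Q6, H2-Q7 and H2-M3 did not pass, which left 2, and H2-Q10 did not pass without the first CC006 library or either CC039 library.

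The class II genes, which professional antigen-presenting cells use, were low in level. H2-Aa was 0.504 and 0.433 in CC006 and 0.226 and 0.606 in CC039, against 0.0181, 0.133 and 0.784. Cd74, the invariant chain, was 1.43 and 2.56 in CC006 and 1.86 and 2.06 in CC039, against 0.297, 0.879 and 3.12. Of 5 tested, H2-Aa was past the threshold and higher in CC006, H2-Ab1 and H2-DMb1 were lower there, and H2-DMa was higher in CC039. Between the strains 1 of 5 tested genes passed: H2-DMb1, a peptide loader, was 1.25 and 1.09 in CC006 and 3.81 and 3.11 in CC039 (-1.24, adjusted p = 0.00591), and did not pass without the second CC006 or the first CC039 library. H2-DMb1 shares 31.4% of its 31-base words with other genes. Chemokines of the interferon response were uneven. Ccl12, which attracts monocytes, was 16.2 and 36.4 in CC006 and 19.5 and 18.2 in CC039, against 0.0769, 2.21 and 38. Cxcl10, which attracts T cells, was 1.73 and 3.5 in CC006 and 1.6 and 1.06 in CC039, against 0.0324, 0.379 and 6.11. None of the 6 tested chemokines passed between the strains (limma), and 1 had an unadjusted p under 0.05.

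Inflammatory genes driven by NF-kappaB were near the background share. Of 19 tested, 2 (C3 and Il1rn) were past the threshold and higher in CC006 and 1 (Saa3) in CC039, against 6.15% and 5.2% of all genes, and neither C3 nor Il1rn passed without the second CC006 library. The median differences were 0.48 and -0.08. None passed between the strains (limma), and 2 had an unadjusted p under 0.05. Saa3, an acute-phase protein, was 43.4 and 7.17 in CC039 and 1.62 and 1.94 in CC006, so that value rested largely on 1 CC039 library. Il6 was 0.503 and 0.647 in CC006 and 0.433 and 0.233 in CC039, against 0.0426, 0.227 and 15.7.

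**Figure D3:**
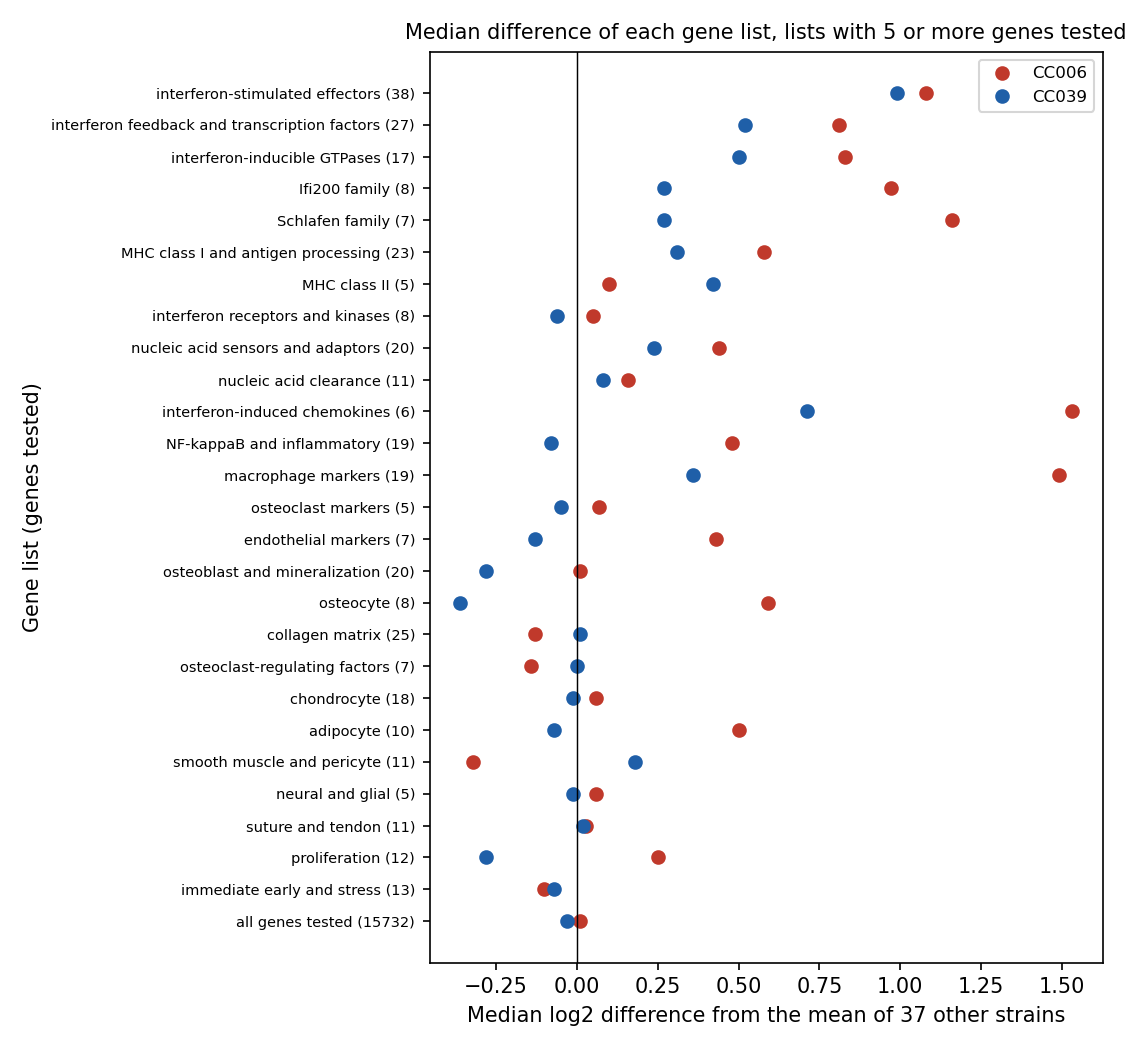
Median log2 difference of each gene list from the mean of the 37 other strains, for CC006 and CC039, with the number of genes tested in brackets. Effectors have close medians (1.08 and 0.99), whereas macrophage markers have 1.49 in CC006 and 0.36 in CC039.

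Markers of macrophages, cells that remain in calvarial cultures and that respond strongly to interferon, moved with the index in CC006. In a bulk culture more cells of a type and more RNA per cell cannot be told apart. C1qb, a complement chain made by macrophages, was 69.2 and 121 in CC006 and 22.7 and 56.4 in CC039, against 1.9, 16.2 and 272. Adgre1, which encodes F4/80, was 34.7 and 48.8 in CC006 and 10.0 and 23.6 in CC039, against strain means with a lowest value of 1.75 and a median of 13.8, and CC030 was the strain with the highest mean. CC006 was above the other strains' median in both libraries, and CC039 lay on either side of it for Adgre1. Of 19 macrophage markers, 16 were past the threshold and higher in CC006 and none in CC039, against 6.15% and 5.2% of all genes. The median differences were 1.49 and 0.36. All 19 were higher in CC006 than in CC039 by sign, with a median log2 difference of 1.04, against 8612 of 15732 genes. Of the 19, 9 had an unadjusted p under 0.05 between the strains (limma). The summed marker level was 903 and 1561 scaled TPM in CC006 and 459.6 and 902 in CC039, against 41.2 to 6249.9 (median 462) in the other libraries, and no marker was at 0 in all 4. Without the second CC006 library none of the 19 passed in CC006, and without the first 10 did. Mrc1, the mannose receptor, was the 1 marker past the threshold between the strains, with 71.7 and 84.7 in CC006 and 12.0 and 15 in CC039 (2.49 ± 0.78, SE, adjusted p = 0.028), and it did not pass when any 1 of the 4 libraries was left out.

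The macrophage index, the mean of log2(scaled TPM + 0.5) over the 19 markers, was 4.30 and 4.98 in CC006 and 3.09 and 4.05 in CC039, against 0.63 to 6.17 (median 2.98) in the other libraries. All 4 lay above that median. The part of macrophages in the interferon result was not tested. With the macrophage index as a term of the fit, added after the data had been seen, 12 of 38 effectors passed and were higher in CC006 in place of 28, and 21 in CC039 in place of 24.

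**Figure D4:**
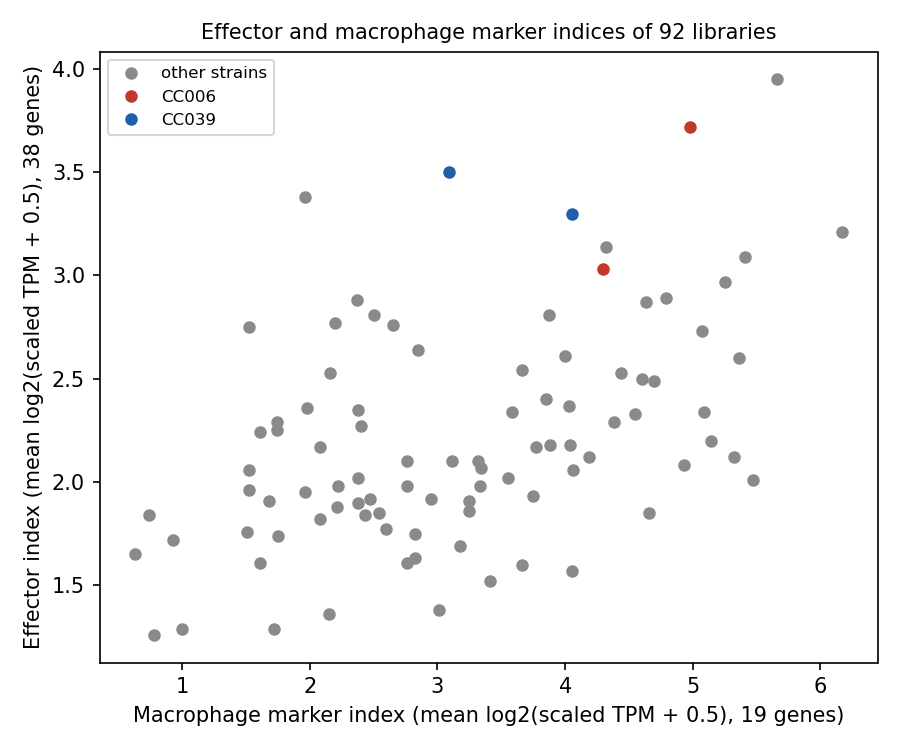
Effector index against macrophage index (both mean log2(scaled TPM + 0.5)) for single libraries. Red and blue points are CC006 and CC039. The effector index was used to choose the strains, so the height of their points is given by that choice, and their macrophage indices run from 3.09 to 4.98 in a panel of 0.63 to 6.17.

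Markers of lymphoid and endothelial cells were low in level. Of 15 lymphoid and plasmacytoid markers 9, including Cd3e and Siglech, were at 0 in all 4 libraries, and 1 reached the filter. Endothelial markers summed to 6.97 and 5.63 in CC006 and 3.72 and 3.92 in CC039 (other libraries 2.8 to 7.65), with Tie1 and Cldn5 at 0 in all 4. By the mean log2 level of the 7 tested markers, and not by this sum, CC006 had rank 1 and CC039 rank 33 of 39 strains. Of these 7 markers, 3 were past the threshold and higher in CC006 and none in CC039. Flt1, a VEGF receptor, was 1.35 and 0.63 in CC006 and 0.0862 and 0.213 in CC039, and Cdh5, which encodes VE-cadherin, 0.687 and 0.327 against 0.0815 and 0.112. Both passed between the strains (adjusted p = 0.000914 and 0.000812) at levels near the filter, and neither did without the first CC006 library. The part of these cells in the interferon result was not tested.

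Osteoblast genes were abundant, as the label of the cultures has it. Alpl, the alkaline phosphatase of mineralizing cells, was 166 and 221 in CC006 and 114 and 145 in CC039, against 45.3, 181 and 310.2. Ibsp, bone sialoprotein, was 2421 and 2086 in CC006 and 933 and 1015 in CC039, against 331, 1612 and 3877, a difference that did not pass (1.21, adjusted p = 0.292). Of 20 osteoblast genes, 1 was past the threshold in each strain: Omd in CC006 and Vdr in CC039, both lower. These counts were below the shares of all genes, 9.8% in CC006 and 10.4% in CC039. Omd, the small proteoglycan osteoadherin, was 21.0 and 15.1 in CC006 and 57.9 and 42.4 in CC039, against 19.3, 48.9 and 85.8, and passed between the strains (-1.45 ± 0.33, SE, adjusted p = 0.00121), though not without the second CC006 or the first CC039 library. Vdr, the vitamin D receptor, was 3.84 and 4.96 in CC006 and 2.3 and 1.62 in CC039 (1.00 ± 0.35, adjusted p = 0.0569). Of the 25 collagen matrix genes Col12a1 and Fmod passed between the strains, both higher in CC039. That count was below the 10.3% of all genes that passed between them. Col12a1, a collagen that sits on fibrils, was 221 and 261 in CC006 and 436 and 417 in CC039 (-0.83 ± 0.19, SE, adjusted p = 0.00136). Actg2 and Cnn1, contractile genes of smooth muscle and myofibroblasts, were also higher in CC039, with 11.5 and 9.77 against 33.2 and 30.2 for Actg2 (adjusted p = 0.0144). Actg2 did not pass when any 1 of the 4 libraries was left out, and Cnn1 did not without the second CC006 library or either CC039 library. Col12a1 and Fmod did not pass without the first CC006 library, and Col12a1 did not with TPM as deposited.

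Outside the lists, some genes were also high in both strains. Clec4n, which encodes the fungal receptor dectin-2, was 9.28 and 12.8 in CC006 and 13.3 and 17.1 in CC039, against 0.0525, 0.906 and 51.1. Ly6a, which encodes Sca-1 and is induced by interferon, was 260 and 166 in CC006 and 129.8 and 111 in CC039, against strain means with a lowest value of 5.34 and a median of 51.3 and a highest other library of 229. Ly6e, of the same family, was 31.9 and 42.7 in CC006 and 35.7 and 31.6 in CC039, against 3.58, 13.3 and 45.1. Each was above the other strains' median in all 4 libraries, and between 6 and 13 of the 88 other libraries reached the lower library of a strain for these 3 genes. Car3, carbonic anhydrase 3, was 44.4 and 32.4 in CC006 and 27.5 and 32.4 in CC039, against 0.619, 7.0 and 72.1.

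Low in both strains were mitochondrial messages. mt-Nd1, a subunit of respiratory complex I, was 148 ± 29.0 (SD, n = 2) in CC006 and 172 ± 9.38 in CC039, against 138, 428 and 677, so that the strains had ranks 38 and 37 of 39. mt-Co2, a subunit of cytochrome oxidase, was 1076 and 963 in CC006 and 1284 and 1081 in CC039, against 938, 2108 and 3452. The lowest other strain mean lay below both strains for each of these genes. Other messages of the same genome did not follow: mt-Co3 was 3699 and 2992 in CC006 and 3814 and 3306 in CC039, above the median of 2792. Of 13 mitochondrial mRNAs, 5 were past the threshold and lower in CC006 and none higher, and 5 were lower and 3 higher in CC039. Ogdhl, an enzyme of the mitochondrial matrix encoded in the nucleus, was 0.92 and 0.689 in CC006 and 1.18 and 0.711 in CC039, against 0.598, 3.07 and 5.8. Cp, ceruloplasmin, was 10.5 and 11.8 in CC006 and 6.03 and 7.25 in CC039, against 3.87, 23.8 and 58.6.

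The strains differed at many genes outside the interferon lists. Both CC006 libraries held Y-linked transcripts (Ddx3y 30.6 and 25.5) and both CC039 libraries held Xist (16.3 and 14.1) with Ddx3y near 0, so sex and strain cannot be told apart in this comparison. Among genes of all kinds, 19.6% of those that passed shared 20% or more of their 31-base words with other genes, against 13.3% of all genes tested, and the largest differences were dominated by ribosomal protein genes and pseudogenes whose reads may be split by sequence. The genes below have little shared sequence except Serpina3n (21.6%), and were picked after their values had been seen.

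Ptgds, the synthase of prostaglandin D2, was 106 and 92.4 in CC006 and 1.03 and 0.715 in CC039, against 0.0853, 1.77 and 8.52. No other library reached either CC006 value, the highest being 14.7. The log2 difference between the strains was 6.19 ± 0.97 (SE, adjusted p = 2.96e-06), 73.1-fold. Serpina3n, a protease inhibitor, was 32.8 and 35.0 in CC006 and 0.801 and 1.12 in CC039, against 0.34, 2.42 and 22.4 (4.57 ± 0.61, adjusted p = 5.8e-08). It too was above every other library in CC006. Ucp2, a carrier of the inner mitochondrial membrane, was 9.56 and 18.7 in CC006 and 1.27 and 1.35 in CC039, against 0.344, 2.32 and 16.5 (2.94, adjusted p = 8.01e-07).

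For some genes CC039 stood near the bottom of the panel and CC006 above its middle. Il33, an alarmin of stromal cells, was 18.1 and 9.96 in CC006 and 0.777 and 1.05 in CC039, against 0.263, 6.62 and 17.7. Cxcl12, the chemokine that holds blood progenitors in bone marrow, was 76.1 and 37.2 in CC006 and 10.1 and 7.35 in CC039, against 7.64, 26.2 and 81.6. Wfdc17, a small secreted protein of myeloid cells, was 21.4 and 24.5 in CC006 and 0.0869 and 0 in CC039, against 0, 5.52 and 154. CC039 had rank 37 of 39 for these 3 genes, and CC006 ranks 3, 3 and 6. Their differences were 3.31 ± 0.46 (SE, adjusted p = 2.31e-07), 2.56 ± 0.49 (adjusted p = 0.000116) and 5.43 ± 0.88 (adjusted p = 6.36e-06).

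Other genes were higher in CC039. Orai2, a subunit of store-operated calcium channels, was 5.72 and 5.6 in CC006 and 30.2 and 26.6 in CC039, against 4.8, 6.41 and 16.9 (-2.23 ± 0.21, SE, adjusted p = 2.05e-12). Cyb5r2, a cytochrome b5 reductase, was 1.32 and 1.21 in CC006 and 8.98 and 7.25 in CC039, against 0.0543, 1.96 and 7.13 (-2.28 ± 0.35, adjusted p = 2.03e-06). No other library reached the CC039 values of either gene. Il1f9, which encodes the cytokine IL-36 gamma, was 0.0633 and 0.128 in CC006 and 2.23 and 3.05 in CC039, against 0.0102, 0.0509 and 2.93 (-2.39 ± 0.13, limma adjusted p = 1.78e-22). The highest mean, in CC037, was above the CC039 mean of 2.64, and 5 other libraries reached the lower CC039 value. Both CC006 values and the median of the other libraries (0.0599) were below 0.5, near the floor, so the pooled SE is small and this p may be too low. Folr2, a folate receptor of tissue macrophages, was 0.668 and 0.911 in CC006 and 6.23 and 9.14 in CC039, against 0.141, 3.21 and 75 (-2.65 ± 0.62, adjusted p = 0.00212). Ms4a7, another macrophage gene, was 2.94 and 6.53 in CC006 and 21.1 and 36.5 in CC039 (-2.52 ± 0.60, adjusted p = 0.00244), and did not pass without the first CC006 or the second CC039 library. Folr2 and Ms4a7, which are not on the marker list, stood opposite to Mrc1 and to the sign of all 19 listed markers between the strains.

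**Figure D5:**
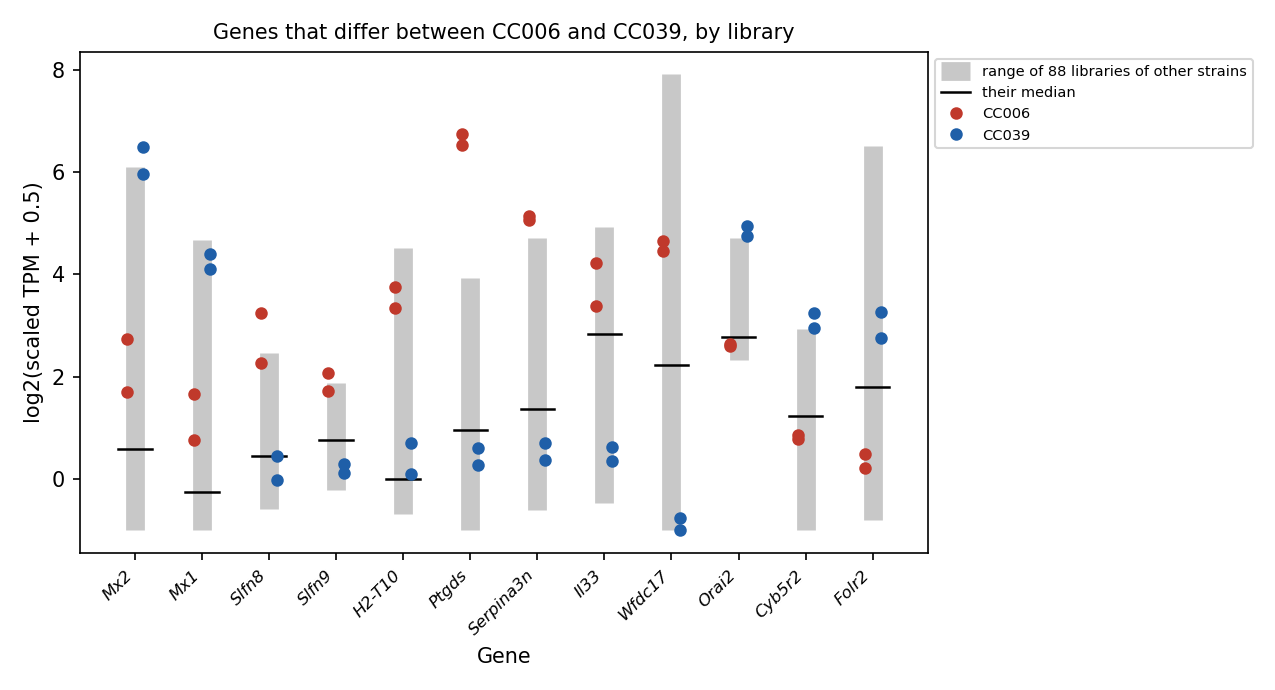
log2(scaled TPM + 0.5) of genes that differed between CC006 and CC039. Points are libraries, grey bars the range and black lines the median of the 88 libraries of other strains. Ptgds (106 and 92.4 in CC006) and Orai2 (30.2 and 26.6 in CC039) lie outside every other library.

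Of 45 genes whose difference between CC006 and CC039 was followed through all alternatives, 20 kept their call in each: among them Mx1, Mx2, Tgtp2, Mndal, Slfn8, Slfn9 and H2-T10 (all but the Mx genes with 20% or more of their words shared), Tbk1, Ptgds, Serpina3n, Il33, Cxcl12, Orai2 and Folr2. The other 25 lost it without at least 1 library. The count over all genes was 1624 with 4 libraries, and 1002 and 850 without the first and second library of CC006, and 860 and 989 without those of CC039. With TPM as deposited the share of calls higher in CC006 moved from 56.7% to 87%, with a median difference over all genes of 0.26 in place of 0.03.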

How the data were processed

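The authors deposited 1 table of transcript values in TPM, read here from the values: the 96 columns sum to 1000000 each, despite a table name that speaks of counts. Bowtie and the mouse build mm9 are named, without a version, per the submitters' processing notes. Which tool assigned reads, and at what depth, the sources used here do not give. Of 94545 transcripts, 91225 could be matched by identifier to the GENCODE annotation of GRCm38, giving sums for 37945 genes. The sample sequenced in 2 runs entered as their mean, which gave 95 libraries. TPM was divided by a trimmed mean of log ratios (30% by ratio, 5% by level, over genes averaging 1 TPM or more, factors 0.793 to 1.245).

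Genes with 0.5 TPM in 2 libraries were tested with limma 3.58.1 in R 4.3.3 on log2(scaled TPM + 0.5), with a variance trend and 1 mean per strain (39 strains, 92 libraries, residual df 53). Fold changes on the log2(value + 0.5) scale understate changes of low genes. Adjusted p-values are Benjamini-Hochberg over 15732 genes, with a threshold of 0.05. The simulated data on which the fit was tested had known changes. Sequence sharing is the percent of a gene's 31-base words found in transcripts of other genes, and 20% or more counts as copies.

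The strains, gene lists and tests were chosen with earlier results of these data known. The genes named from a list are those with the largest mean difference of the 2 strains, up to 8 effectors and 4 of other lists. Members below the mean of the others in both strains were added. From outside the lists, the rule took the 10 largest in each direction for shared, between-strain and strain-only differences. Of the 57 genes that gave, 48 were not protein coding or had copies, so protein-coding genes with under 20% sharing were ranked as well, after values had been seen. Other genes named, such as pathway components and Serpina3n, were also picked after their values were seen. Some items are not reported here. Alternatives changed the pseudocount, filter, scaling, trend and libraries.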

Additional observations from a re-analysis of the deposited data

Results flagged for a closer look

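Against the other strains, 156 genes passed the threshold in opposite directions in CC006 and CC039. Among the genes followed through the alternatives, 7 did so and also passed between the 2 strains, so the same contrast had opposite signs. The log2 differences of CC006 minus CC039 were 5.43 for Wfdc17, 4.6 for Ms4a8a, 3.31 for Il33, 2.75 for Mndal, 2.56 for Cxcl12 and 1.87 for Tgtp2, whose sequence is largely shared with Tgtp1. Rnaset2a, a lysosomal RNase, went the other way with -1.35. In CC006 against the other strains, Wfdc17, Il33 and Cxcl12 did not pass with the macrophage index as a term. Wfdc17 and Cxcl12 also did not with the level of Eif2s3y as a term or when either CC006 library was left out. Il33 did not pass without the first CC006 library, and Cxcl12 did not in CC039 without its second library. Ms4a8a, a membrane protein of the MS4A family, was 8.52 and 15.8 scaled TPM in CC006 and 0 in both CC039 libraries. The median of the other strains was 0, and 67 of the 88 other libraries were also at 0. The highest strain mean was 18.7 in CC071, and CC006 had rank 3. Rnaset2a was 11.6 and 10.5 in CC006 and 28.5 and 29.4 in CC039, but 89.5% of its 31-base words occur in other genes, and its sum with Rnaset2b was 90.9 and 92.9 in CC006 and at least 111 in CC039.

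CC024 has 1 library and so entered no comparison. Its effector index was 3.83, the second highest of all 95 libraries after a CC030 library at 3.95, and its macrophage index was 5.17.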

How the results depend on the processing

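No paired analysis was possible because the labels carry no replicate numbers, and the numbers used here only name the libraries. Of 1573 values of single genes recomputed under the alternatives, 1409 kept their direction and side of the threshold, 162 no longer passed and 2 changed sign: Slfn4 between the strains was 0.08 without the first CC006 library (-1.40 without the second), and Adgre1 in CC006 was -0.04 with the macrophage index as a term, an alternative added after seeing the data, as were the level of Eif2s3y as a term and leaving out CC030 and CC051. Leaving out 1 library changed many counts, with 1 sample then assumed to vary like the other strains. Genes past the threshold ran from 384 to 1523 in CC006, from 626 to 1634 in CC039 and from 850 to 1002 between them. Higher effectors ran from 1 to 28 in CC006, 8 to 25 in CC039 and 1 to 16 in both, those differing between the strains from 2 to 7, and genes higher in both from 60 to 115. Macrophage markers higher in CC006 ran from 0 to 16, and none differed between the strains. With the macrophage index as a term 915 genes passed in CC006, 12 effectors were higher in CC006, 7 in both, and 4 differed between the strains. Of the macrophage markers 0 were then higher in CC006 and 1 in CC039, and 3 differed between the strains. The term is the mean of these same markers. Their counts under it, and the sign of Adgre1, therefore follow in part from its construction and show nothing about the markers. With TPM as deposited 5 effectors and 2 macrophage markers differed between the strains. With a pseudocount of 1, 2 macrophage markers differed, and with Eif2s3y as a term 0 did. The effector index of CC039 minus the other strains was 1.18, and became 1.41 and 1.03 with pseudocounts of 0.1 and 1, 1.02 with TPM as deposited and 0.72 against libraries with title numbers within 10. The cause of these changes was not tested. TPM carries no depth, and 2 libraries a strain limit the precision.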

Other observations

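Against the libraries whose title numbers lay within 10, the effector index was 1.09 and 1.45 higher in the CC006 libraries and 1.2 higher in the first CC039 library. It was 0.25 higher in the second CC039 library, whose 4 neighbours, of 3 strains, averaged 3.06. The labels do not explain the title number, and its part in the result was not tested.

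The other strains with 1 library, CC011 and CC035, had effector indices of 2.30 and 1.72. Over the tested genes, the nearest library to each of the 4 was the other library of its strain, at a correlation distance of 0.0158 for CC006 and 0.0155 for CC039. Genes with copies were 18.9% of those that passed in CC006 and 23.3% in CC039, against 13.3% of all genes tested.

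Siglec1, a sialic acid receptor of macrophages that interferon induces, was 2.36 and 7.34 scaled TPM in CC006 and 2.01 and 5.58 in CC039, against a median of 0.854 and a highest strain mean of 19.3 in CC030. Fabp4, a lipid carrier of adipocytes and macrophages, was 11.3 and 6.7 in CC006 and 1.21 and 1.14 in CC039, a difference of 2.46 on the log2 scale that did not pass (limma, adjusted p = 0.15). The osteocyte genes Sost and Mepe were 13.3 and 20.3, and 15.9 and 16.1, in CC006, and 2.35 and 2.16, and 2.9 and 4.17, in CC039, and neither passed (adjusted p = 0.133 and 0.147). None of 12 proliferation genes passed in either strain or between them (limma), and none had an unadjusted p under 0.05. Of 11 nucleic acid clearance genes, 3 were past the threshold and higher in CC006 and 1 lower, and 2 were higher in CC039. Of 18 chondrocyte genes, Hapln1, a link protein of cartilage matrix, was higher in CC039 (-1.63, adjusted p = 2.82e-06) and Chad, chondroadherin, in CC006 (0.95, adjusted p = 0.0382). Cd36, a fatty acid carrier of adipocytes and macrophages, was the 1 of 10 adipocyte genes that passed between the strains (2.62, adjusted p = 0.00194). The chondrocyte and adipocyte counts were near the 10.3% of all genes that passed between the strains.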
